A study of Homo sapiens with 8 samples.

Results

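The m6A landscape of the parental HL60 line was described from 40550 peaks, called on the pooled HL60 immunoprecipitation (IP) libraries against the pooled HL60 input libraries. All 40550 peaks were taken, of 79384 peaks in both lists of the series. They were annotated to 15640 genes, of which 14559 also had expression values and 1081 did not (1473 peaks in these 1081). Each peak was joined by gene ID to the mean FPKM (fragments per transcript length and sequencing depth) of HL60 input 1 and HL60 input 2. Of 27996 genes with expression values, 11166 had a mean of 1 FPKM or more in HL60, and these genes held 27468 peaks. A further 5355 genes with a peak were below 1 FPKM (11609 peaks) and were not classed.

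HL60, the parental line, is an established human cell line of promyelocytic leukemia. Its derivative HL60/ADR, resistant to Adriamycin (doxorubicin), was maintained at 0.5 μg/ml of the drug and left without it for a week ahead of use. Poly(A) RNA was fragmented and split into an anti-m6A IP and an input, with 2 IP and 2 input libraries from HL60 and the same from HL60/ADR. The HL60/ADR libraries were recognised by their titles, because their cell line and source labels also read HL60, and the labels do not say whether the replicates, which the study calls biological, came from separate cultures.

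The mark N6-methyladenosine (m6A) is a methyl group placed on adenosines within mRNA. It is written by a METTL3-METTL14 core with the adaptors WTAP, VIRMA, RBM15, ZC3H13 and CBLL1, removed by FTO and ALKBH5, and read by YTH and IGF2BP proteins that affect decay, translation, splicing and export of the transcript. In mammalian mRNA it is typically found in long internal exons and near the stop codon, within a sequence whose core is often GGAC. Anti-m6A antibodies also bind m6Am, a dimethylated adenosine that can be the first transcribed base next to the cap, so a peak at the very start of a transcript can come from either mark. In leukemia cells, m6A of MYC, MYB, RARA and other mRNAs has been linked to blocked differentiation.

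The input libraries were close to each other. Over the 11166 genes, log2(FPKM + 1) had r = 0.990 between the inputs, a value across genes of libraries from 1 line, and 96.7% of the genes lay within 1.5-fold. Of 10 promyelocyte markers, 8 were at 1 FPKM or more, led by MPO, the granule peroxidase, with 137 and 135 FPKM in HL60 inputs 1 and 2. ELANE, neutrophil elastase (0.41 and 0.24 FPKM), and KIT, the stem cell factor receptor (0.26 and 0.20 FPKM), were below it. Of the T and NK cell markers 2 of 7 with values passed 1 FPKM (NKG7 and TRAC), of the B cell markers 2 of 5, of the erythroid 2 of 3, of the monocyte 2 of 7 and of the epithelial 1 of 8. The sums over these 6 lists in inputs 1 and 2 were 397 and 399.6 FPKM for promyelocyte, 61.7 and 64.2 for T and NK, 17.8 and 18.2 for B cell, 7.06 and 6.21 for erythroid, 10.0 and 9.84 for monocyte and 5.63 and 0.138 for epithelial markers. In bulk RNA, fewer cells with a transcript and less of it per cell cannot be told apart.

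The sequences at transcript starts are shown because some of the strongest peaks in HL60 overlapped the first bases of a transcript, where m6Am can sit. The runs shown were the first 30 transcribed bases in RefSeq (GRCh38.p14), written 5′ to 3′ with T for U and with the first base in capitals. The first set was taken from the genes at 10 FPKM or more with the highest fold enrichment (IP signal over input signal) of a peak over the start. The value is that of the whole peak, which reaches beyond these bases, so it does not place the signal on them. MORF4L1 (a chromatin-binding subunit of histone acetyltransferase complexes) had a 217-fold peak of 539 exonic bases in 3 blocks. This peak begins at chr15:78848005, upstream of the run shown, so part of it lies before this start. UBE2K (a ubiquitin-conjugating enzyme) had a 115-fold peak of 420 exonic bases in 3 blocks. SENP3 (a SUMO protease of the nucleolus), ABCF2 (an ABC-family ATPase) and PBX2 (a homeobox factor) had peaks of 113-, 48.6- and 43.6-fold. Only the runs of MORF4L1 and ABCF2 begin with A, whereas those of UBE2K and SENP3 begin with G and that of PBX2 with C. The runs of MORF4L1, UBE2K, SENP3, ABCF2 and PBX2 lie at chr15:78872890-78872919 (+), chr4:39698136-39698165 (+), chr17:7561919-7561948 (+), chr7:151227176-151227205 (-) and chr6:32190173-32190202 (-), in this order.
MORF4L1: Aaatccggcccaggatgtagagctggcagt
UBE2K: Gccattttggtggccgggcgcggaggtgat
SENP3: Gtgacgtactaatcgtgcgccaccgctgcc
ABCF2: Aaggagcagctctgttgcgacataggccga
PBX2: Ctcctccctcctccctctctctcacacaca

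The second set holds the genes of highest FPKM without a peak that had an entry of 1 start: FTL (ferritin light chain), GAPDH and ENO1 (glycolytic enzymes) and the ribosomal proteins RPS18, RPS12 and RPL7A. mRNAs of ribosomal proteins are known to start with a C followed by a run of pyrimidines, the 5′ terminal oligopyrimidine tract, which RPS18, RPS12 and RPL7A show. The run of PBX2, of the first set, also begins with a C and a run of pyrimidines. The runs of FTL, GAPDH, RPS18, RPS12, ENO1 and RPL7A lie at chr19:48965309-48965338 (+), chr12:6535264-6535293 (+), chr6:33272075-33272104 (+), chr6:132814569-132814598 (+), chr1:8878657-8878686 (-) and chr9:133348218-133348247 (+).
FTL: Gcagttcggcggtcccgcgggtctgtctct
GAPDH: Gtccggatgctgcgcctgcggtagagcggc
RPS18: Ctctcttccacaggaggcctacacgccgcc
RPS12: Ctctttccctgccgccgccgagtcgcgcgg
ENO1: Agtatctgtgggtacccggagcacggagat
RPL7A: Ctttctctctcctcccgccgcccaagatgg

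Peaks over the start were more often found on transcripts that begin with A. Of the 11166 genes, 5698 were matched to a RefSeq start by a unique symbol, chromosome and strand. A was the first base in 38.6% of the 673 matched genes without a peak (95% Wilson interval 35.0 to 42.4), in 42.2% of the 3455 with peaks elsewhere only (40.5 to 43.8) and in 52.5% of the 1570 with a peak over the first 30 bases (50.0 to 54.9). The interval of the last group overlapped neither of the others. The intervals cover counting error only, and the start used in HL60 was not measured. Within genes at 1 to 5 FPKM the shares were 38.5%, 45.6% and 53.0%, at 5 to 20 FPKM 44.2%, 41.3% and 53.6%, and at 20 to 100 FPKM 30.5%, 37.2% and 48.9%, in the same order of groups. The share with A was 47.3% (41.1 to 53.6) where the peak over the start was strong (6-fold or more) and 55.7% (52.0 to 59.4) where it was under 3-fold, and these intervals overlapped. The interval of the strong peaks also overlapped those of the genes with peaks elsewhere only and of the genes without a peak. Overlapping intervals do not show that shares are equal, and the differences between these groups were not tested.

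A first C went the other way, with 18.6% of the genes without a peak (15.8 to 21.7), 12.2% with peaks elsewhere (11.1 to 13.3) and 9.04% with a peak over the start (7.72 to 10.6). A first G was found in 41.8% (38.1 to 45.5), 45.2% (43.5 to 46.8) and 37.8% (35.5 to 40.3) of these groups, in the same order. GGAC, searched on the transcribed strand of the first 50 bases, was found in 19.0%, 18.6% and 20.8% of these groups, against 19.3% of all matched genes. Of 54 matched cytosolic ribosomal protein genes, 45 started with C (83.3%, 71.3 to 91.0) and 9 had a peak over the start (16.7%, 9.02 to 28.7).

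Genes at 1 FPKM or more were placed in 4 classes. Genes without a peak had no entry in the list, and weak genes had every peak under 3-fold. Strong genes had a peak of 6-fold or more at a false discovery rate (FDR) of 1e-05 or less, and the rest were intermediate. The fold enrichment given for a strong gene is that of its highest peak within this FDR limit. There were 1962 genes without a peak (17.6%), 2090 weak (18.7%), 4835 intermediate (43.3%) and 2279 strong (20.4%). Thus 9204 of the 11166 genes (82.4%) carried a peak, but in 780 of them every peak was under 2-fold. Counting only peaks of 2-fold or more, 2742 genes (24.6%) had none, among them the weak genes CLC, ACTG1, MPO, WTAP and IGF2BP1. Of the intermediate genes, 1116 had a peak of 6-fold or more that missed the FDR. The limit of 6-fold cut through a dense part of the list, with 1112 genes whose highest value was from 5 to under 6 and 784 strong genes whose peak was from 6 to under 7. The list was pooled over replicates, so these classes have no replicate error, and no test of them was possible.

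Weak genes were the most abundant class and strong genes were expressed at lower levels. Median FPKM was 4.45 for genes without a peak, 11.03 for weak, 6.73 for intermediate and 5.12 for strong genes, and the medians in inputs 1 and 2 differed by less than 0.05 FPKM in every class (4.47 and 4.48 without a peak, 10.98 and 11.01 weak, 6.71 and 6.73 intermediate, 5.11 and 5.15 strong). The weak to strong ratio of the medians was 2.15 ± 0.0076 (SD between inputs, n = 2). The median gene span was 5973 bases without a peak, 22490 in weak, 33216 in intermediate and 34007 in strong genes, so the genes without a peak were the shortest. Of these genes, 633 had a peak of another gene within their span and 1329 had none.

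The class shares moved with expression in both directions. At 1 to 5 FPKM, 22.6% of 4623 genes had no peak and 24.2% were strong. At 5 to 20 FPKM, 11.8% of 4585 genes had no peak and 20.9% were strong. At 20 to 100 FPKM, 17.4% of 1746 genes had no peak and 11.2% were strong. At 100 FPKM and over, 33.5% of 212 genes had no peak and 4.25% were strong. The share without a peak was therefore lowest in the middle of the range, whereas the strong share was lower in each higher range. Among genes with a peak, the median of the highest fold enrichment was 5.78, 4.76, 3.68 and 2.58 over the same ranges. The values hold no read counts, and the part of read depth in these shares was not tested.

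**Figure D1:**
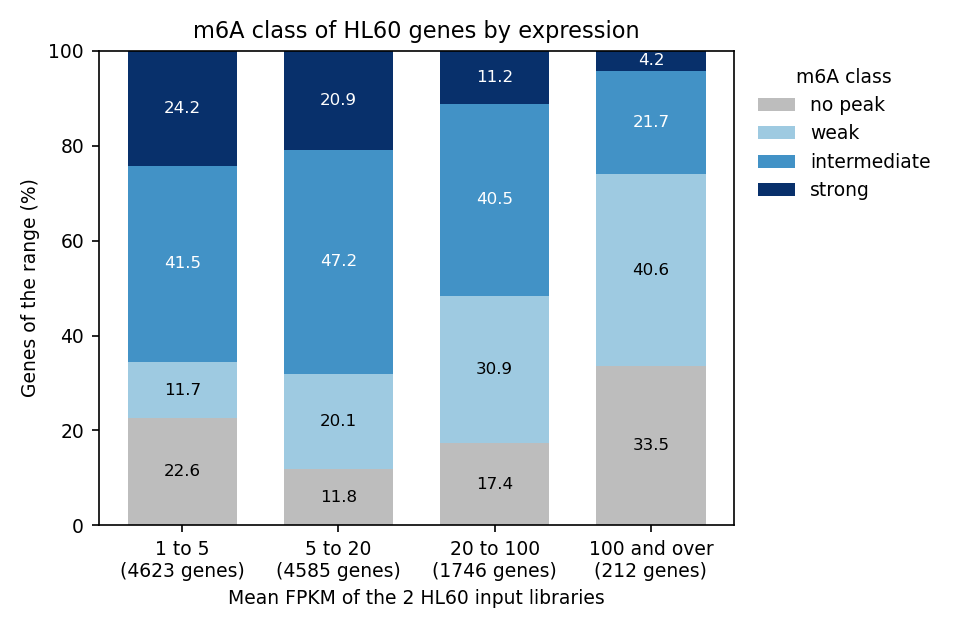
Share of HL60 genes (%) in each m6A class by mean FPKM of the HL60 inputs, with the number of genes under each bar. Strong genes make up 24.2% at 1 to 5 FPKM and 4.25% at 100 FPKM and over, where 33.5% have no peak.

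Among the most abundant transcripts of HL60, those without a peak were led by FTL, with 3514 and 3584 FPKM in inputs 1 and 2. GAPDH had 1674 and 1722 FPKM, and RPS2, a small ribosomal subunit protein, had 878 and 889.9 FPKM. SRGN (serglycin, the proteoglycan core of myeloid granules) had 623 and 620.2 FPKM, and HMGA1, a chromatin architectural protein, had 529.6 and 530.3 FPKM, both also without a peak. Also among the 12 genes of highest FPKM without a peak were RPS18, RPS12, ENO1, RPL7A and the signal recognition particle RNAs RN7SL1 and RN7SL2. None of the 12 genes had a peak of another gene in its span, and 10 of the 12 also had no peak in HL60/ADR, where RPS18 (2.19-fold) and ENO1 (1.72-fold) were weak. Ribosomal protein genes, GAPDH and RN7SL have many near-identical copies in the genome, and how reads that fit several places were counted was not given in the sources used here, so their classes are uncertain.

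The weak class at high expression was led by eosinophil granule and cytoskeletal transcripts. PRG2 (eosinophil major basic protein) had 1813 and 2087 FPKM with peaks up to 2.43-fold, and CLC (the Charcot-Leyden crystal protein) averaged 1597 ± 12 FPKM (SD, n = 2) with peaks up to 1.68-fold. The actins ACTB (936 and 938 FPKM, 2.31-fold) and ACTG1 (741 and 753 FPKM, 1.78-fold) followed, with 1 peak each in the 3′ UTR. The other 4 of the 8 were HSP90AB1, PTMA, ALDOA and EEF1G, with 1.78- to 2.47-fold.

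Strong genes at high expression started at lower FPKM than either of these sets. FBL, the nucleolar methyltransferase fibrillarin, was the most abundant strong gene, with 199 and 202 FPKM. Its only peak was 37.6-fold and was annotated to the 5′ UTR (chr19:39840303-39846379, GRCh38, 387 exonic bases in 4 blocks). SLC1A5, a glutamine transporter, had 137 and 137 FPKM and a 37.5-fold peak in the 5′ UTR (chr19:46787815-46788833). GANAB, the catalytic subunit of glucosidase II, had 115 and 115 FPKM and a 29.5-fold peak of 151 bases at the end of its 3′ UTR (chr11:62624826-62624976). SPI1, which encodes the myeloid master factor PU.1, had 92.3 and 95.5 FPKM and a 6.91-fold peak in the 3′ UTR (chr11:47354860-47358364).

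Also among the 12 strong genes of highest FPKM were HSPA8 (6.77-fold), MYH9 (6.62-fold), RAC2 (7.10-fold), RPL36AL (6.18-fold), EIF3CL (6.79-fold), HSP90B1 (8.83-fold) and PDIA3 (11.4-fold). RAC2 is the hematopoietic Rac GTPase and PDIA3 a disulfide isomerase of the endoplasmic reticulum. EIF3CL and RPL36AL have close paralogs, so their reads may be split or shared, and the MYH9 peak was annotated to an exon of another gene. In HL60/ADR, 9 of the 12 genes were also strong, HSP90B1 and MYH9 were intermediate and EIF3CL was weak.

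**Figure D2:**
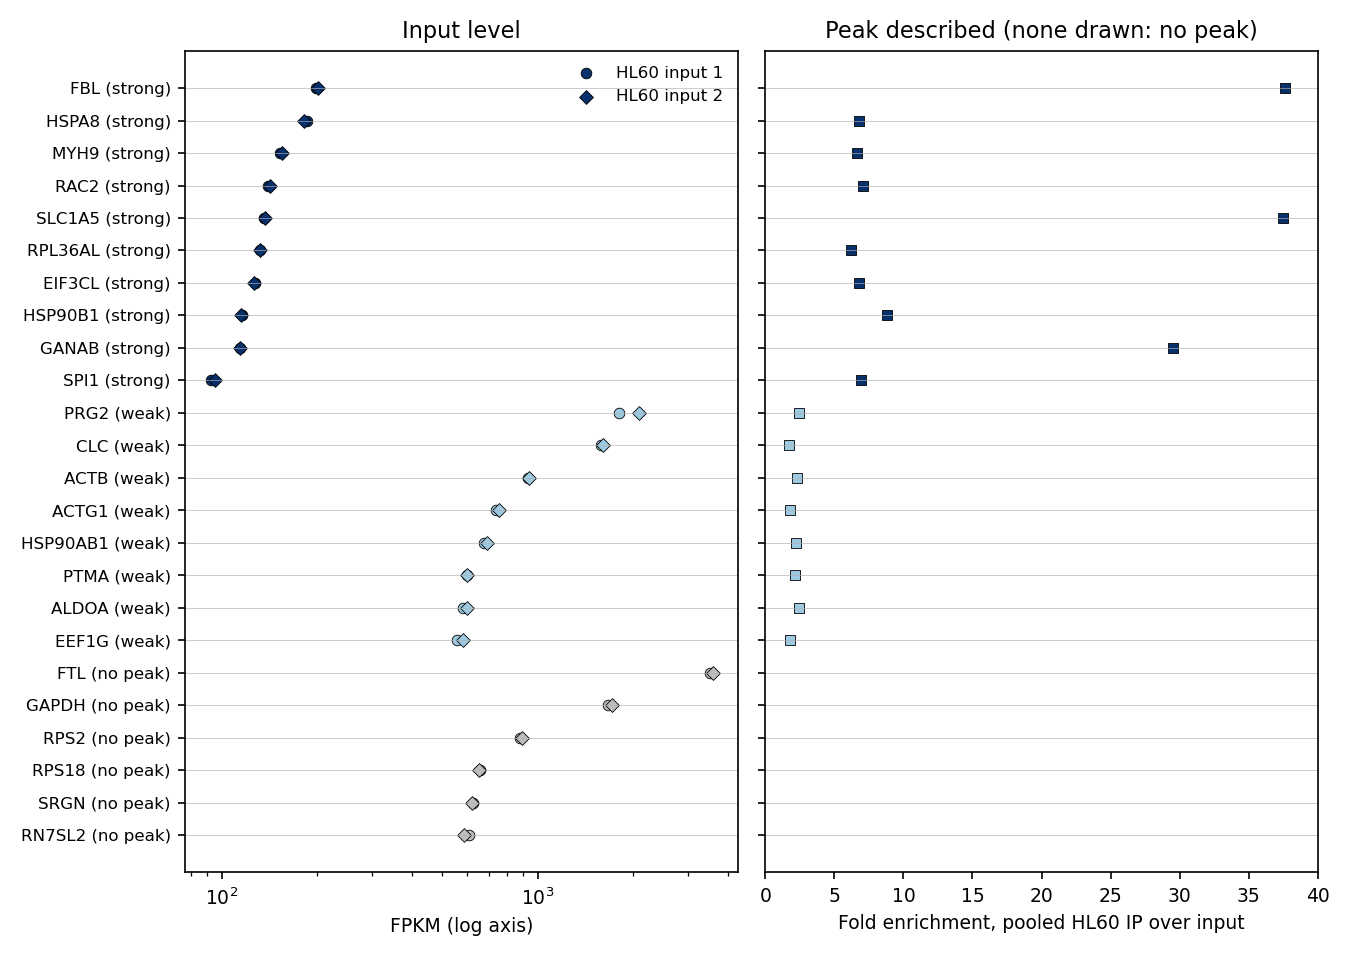
FPKM in HL60 inputs 1 and 2 (log axis, left) and fold enrichment of the peak described for each gene (right), for the 10 strong, 8 weak and 6 unpeaked genes of highest FPKM. FBL, SLC1A5 and GANAB stand apart at 29.5- to 37.6-fold, while PRG2, CLC and the actins stay at 1.68- to 2.43-fold.

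The largest fold enrichments within the FDR limit were then listed for genes at 10 FPKM or more, which leaves out genes of lower expression with values as large. MORF4L1 led with a 217-fold peak (chr15:78848005-78873779, 5′ UTR) at 22.6 and 23.0 FPKM. PARVG, an actin-linked adaptor of blood cells, had a 151-fold peak in the 3′ UTR (chr22:44207036-44207695) at 10.1 and 10.6 FPKM, and held 13 peaks in all. NSF, an ATPase of vesicle fusion, had a 138-fold peak (chr17:46637490-46674590) at 17.9 and 18.0 FPKM. Its peak was annotated to a 3′ UTR although it lay inside the gene, and NSF had no peak in HL60/ADR, where the other 11 of the 12 genes were strong. NEAT1, the architectural RNA of paraspeckles, had an 84.0-fold peak of 1826 bases (chr11:65423492-65425317) at 13.3 and 13.8 FPKM. The remaining genes of the 12 included UBE2K, SENP3, SYMPK, ERF, AC004687, GTPBP2 and KCTD9, at 56.3- to 115-fold. The counts behind these ratios were not given in the list.

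Many fold enrichments were whole multiples of 1.104 (6 to 40 steps at the printed digits), a step chosen because most values fitted it. In genes at 1 FPKM or more, 542 of 2763 strong peaks (19.6%) and 1650 of 11548 intermediate peaks (14.3%) lay on such a step. The 13157 weak peaks are below 6 steps and could not be counted. The share that rounding alone would give was not computed. Without the strong peaks on a step, 1905 genes (17.1%) stayed strong. The share on a step was 19.5%, 19.3% and 21.0% in the ranges from 1 to 100 FPKM, and 4 of 10 strong peaks at 100 FPKM and over were on one. Values on a step include those given in this text for MYH9, IRF1, BAX, FOXO4, HSPA1B, NDUFB2, ALKBH5 and FTO.

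Genes with most peaks of 2-fold or more were JPX (a long noncoding RNA), RNF213 (a giant ubiquitin ligase) and SPG7 (a mitochondrial protease), with 21 each, and DST, SCAND2P, CFLAR, MBP and VPS53, with 15 to 18. Their levels were 1.32 to 12.1 FPKM in the inputs. The strong share was 12.9% of 2523 genes with 1 peak, 20.8% of 2278 with 2, 28.4% of 2740 with 3 or 4, 39.1% of 1416 with 5 to 8 and 60.3% of 247 with 9 or more, while the median span of these genes was 17787, 25780, 36847, 52461 and 78531 bases. A gene with more peaks has more chances to hold a strong one, and this was not corrected for.

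About equal shares of strong and weak peaks lay in the 3′ UTR, while strong peaks were somewhat more frequent in the 5′ UTR and less frequent in other exons. Of the 4037 strong peaks in all genes of the list, 26.7% were annotated to the 5′ UTR, 25.2% to another exon and 48.1% to the 3′ UTR, against 21.1%, 28.6% and 50.4% of 15308 weak peaks. In genes at 1 FPKM or more, the contrast was larger, with 30.5%, 18.9% and 50.6% of 2763 strong peaks, against 22.6%, 26.3% and 51.0% of 13157 weak peaks. Put the other way, 12.4% of 6792 peaks in the 5′ UTR were strong, 7.54% of 6940 in other exons and 10.2% of 13736 in the 3′ UTR. Strong peaks were also longer, with a median of 868 exonic bases, against 211 in weak peaks, and 53.3% of them had more than 1 block, against 37.2%. Each peak has 1 region label even where it spans several exons, and the part of peak length in the region shares was not tested. Of the peaks in other exons, 38.2% of 523 strong ones were in an internal exon and 25.0% in a last exon, against 57.5% and 19.4% of 3463 weak ones. The exon annotation follows 1 transcript per peak, so a 3′ UTR can be that of a short isoform. Of the 523 strong peaks in other exons, 19.3% were annotated to an exon of another gene than the one they were assigned to, against 12.6% of 3463 weak ones.

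The 2279 strong genes held 2763 strong peaks, and most of these genes held only 1. Each peak has 1 region label, so a gene with 1 strong peak could fall in only 1 region. The strong signal was in the 3′ UTR only in 1102 of 2279 genes (48.4%, median 4.67 FPKM), in the 5′ UTR only in 634 (27.8%, median 7.16 FPKM), in other exons only in 365 (16.0%, median 3.91 FPKM), and in more than 1 region in the remainder. Genes with strong signal in the 5′ UTR only had the highest median level of these groups.

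**Figure D3:**
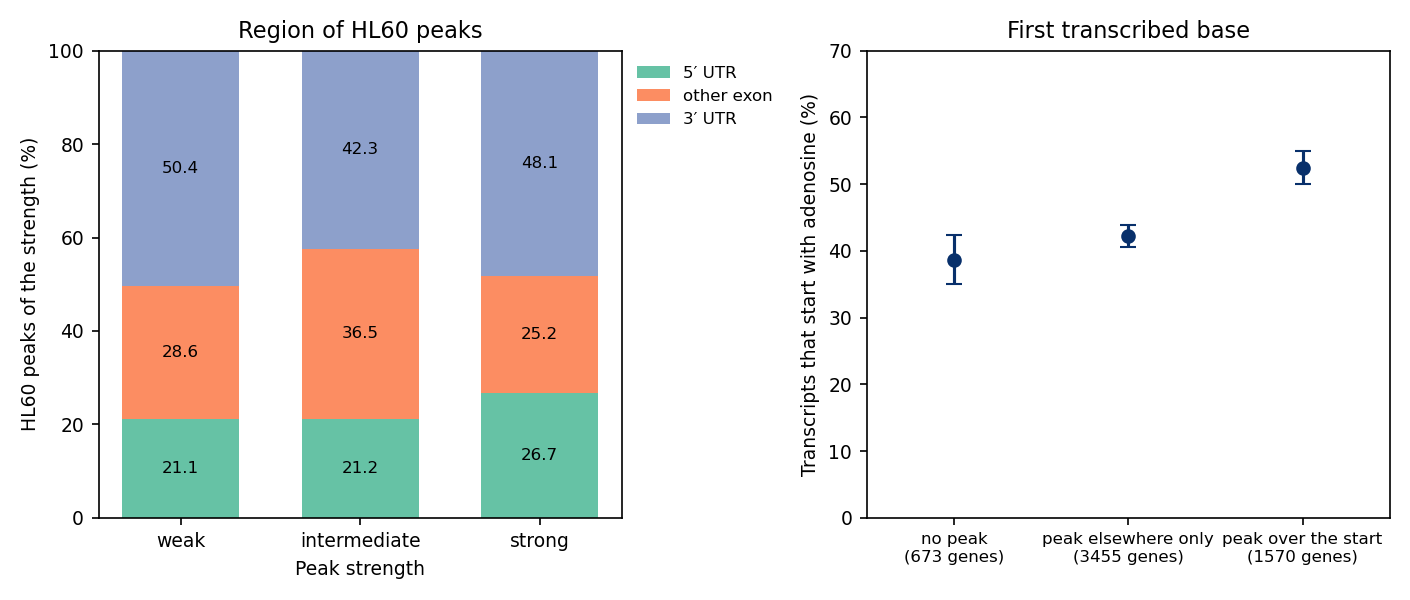
Left, share of HL60 peaks (%) by annotated region for weak, intermediate and strong peaks of all genes. Right, share of transcripts (%) whose first base is adenosine, with 95% Wilson intervals, where 52.5% of genes with a peak over the start stand above 42.2% and 38.6% of the other groups.

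Zinc finger genes, chromatin modifying enzymes and myeloid transcription factors had the largest shares of strong genes among the lists. By the median of the highest fold enrichment, long noncoding RNAs (6.68) and Notch signaling (6.62) were above them. Beside the counts below, the share over all genes was 20.4% strong and 17.6% without a peak. A second value, where given, is the count that the shares of the 4 expression ranges would give for members at the same levels. The lists were described by counts only.

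The zinc finger genes named ZNF with a number, mostly KRAB and C2H2 repressors of transcription and transposons, had 134 strong of 281 (47.7%), against 64.9 from the range shares. Only 14 had no peak, against 55.7, and 7 were weak. Their median FPKM was 3.26, and the median of their highest fold enrichment was 6.34, against 4.95 over all genes with a peak. Of their 163 strong peaks, 108 lay in the 3′ UTR. ZNF175 had the largest, a 138-fold peak in the 5′ UTR (chr19:51571283-51573375) at 6.39 and 5.79 FPKM, and ZNF316 (83.4-fold, 7.13 and 7.07 FPKM) and ZNF562 (39.7-fold, 5.05 and 5.22 FPKM) followed. ZNF664, with 18.9 and 19.3 FPKM, was the most abundant without a peak. Their enrichment was broad rather than extreme: with a limit of 10-fold for a strong peak, 7.12% of the zinc finger genes and 5.70% of all genes were strong. These genes share much sequence, so the reads of single members are uncertain.

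Chromatin modifying enzymes had 37 strong of 86 (43.0%), against 17.6 from the range shares, and only 2 without a peak, against 13.3. The strong members included the histone methyltransferases KMT2D (7.18-fold, 18.9 and 19.1 FPKM) and NSD1 (9.59-fold, 9.47 and 9.19 FPKM). The acetyltransferases EP300 (6.17-fold) and CREBBP (6.06-fold) were just over the limit. ASXL1, a Polycomb-associated factor often mutated in myeloid disease, had a 12.1-fold peak at 10.2 and 10.1 FPKM. EED, a core subunit of the Polycomb complex PRC2, had the largest within the FDR limit at 19.6-fold (5.24 and 5.59 FPKM), while EZH2, the catalytic subunit of the same complex, was weak (2.26-fold at 29.3 ± 0.43 FPKM, SD, n = 2 inputs). HDAC3, a histone deacetylase, was at 21.5 and 21.8 FPKM and had no peak. Their genes were long, with a median span of 81308 bases, against 25950 over all genes, and the part of length in their counts was not tested.

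**Figure D4:**
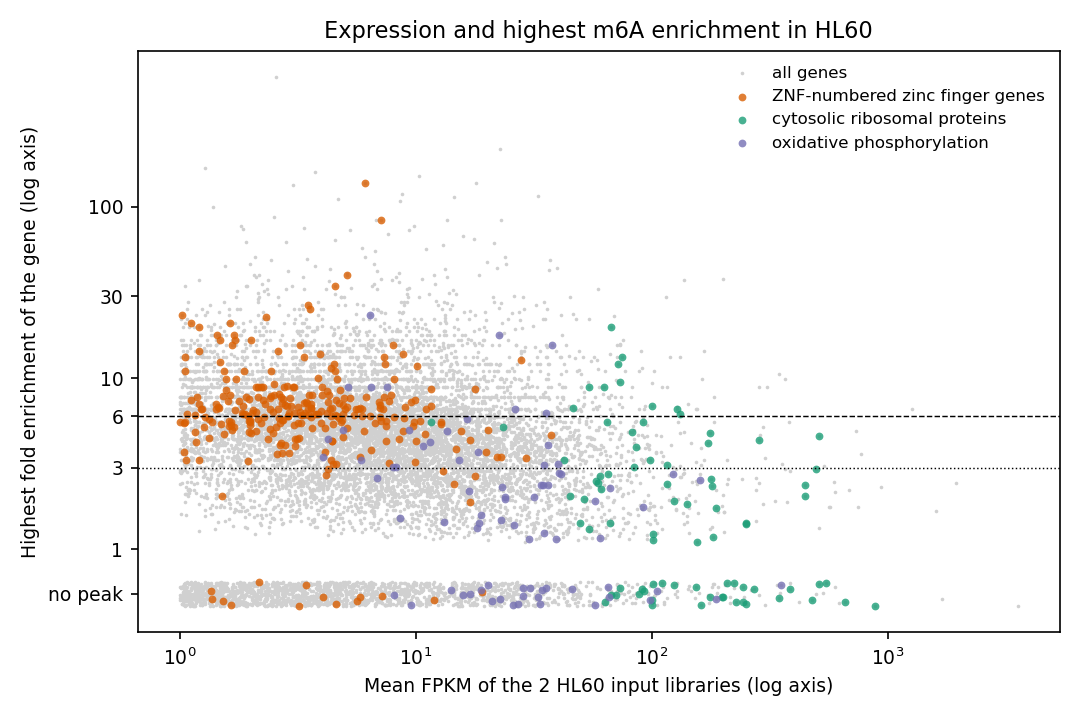
Mean FPKM of the HL60 inputs (log axis) and highest fold enrichment per gene (log axis), with genes without a peak in the band below. Zinc finger genes gather around the dashed 6-fold line (median 6.34), whereas ribosomal protein and oxidative phosphorylation genes lie mostly under the dotted 3-fold line or in the band.

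Myeloid transcription factors had 11 strong of 31 (35.5%), against 5.47 from the range shares, and 1 without a peak. Besides SPI1, the strong members were GATA2 (6.17-fold, 67.6 and 67.9 FPKM), a factor of hematopoietic progenitors, and CEBPE (7.97-fold, 68.4 and 65.7 FPKM), the factor of granule formation in promyelocytes. LYL1, RARA, NFE2, LMO2, PML, KLF6 and CEBPD were strong at 6.11- to 7.36-fold within the FDR limit, and IRF1 at 22.1-fold. CEBPA, the factor that starts granulocyte differentiation, was weak at 2.69-fold with 79.8 and 80.4 FPKM, and MYB, the progenitor proto-oncogene, was weak at 2.30-fold with 53.4 and 54.8 FPKM. IKZF1, the lymphoid and myeloid factor Ikaros, had 28.1 and 29.1 FPKM and no peak. Factors of the same lineage thus fell in all 4 classes.

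Of the m6A targets studied in AML, 4 of 14 were strong (28.6%, against 2.27) and none lacked a peak, against 2.15. RARA (7.31-fold, 19.2 and 19.1 FPKM), BCL2, the antiapoptotic protein (8.96-fold, 8.12 and 8.46 FPKM), ASB2, a ubiquitin ligase subunit (7.49-fold), and MDM2, the p53 ligase (7.09-fold), were strong. MYC was intermediate, with 5 peaks of up to 4.60-fold at 109 and 111 FPKM. SP1 (5.73-fold), a promoter factor, was also intermediate, and PPAT, an enzyme of purine synthesis, was weak (1.82-fold).

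Every member of the m6A machinery at 1 FPKM or more carried a peak, as did 82.4% of all genes. From the range shares, 1.68 of 11 writers and erasers and 2.09 of 13 readers would have none. Of 11 writers and erasers, 3 were strong, against 2.30 from the range shares: RBM15 (8.25-fold, 7.52 and 6.74 FPKM), METTL16, the U6 methyltransferase (6.84-fold, 3.28 and 3.09 FPKM), and VIRMA (6.79-fold, 9.59 ± 0.27 FPKM, SD, n = 2 inputs). The core enzyme METTL3 was weak (2.79-fold, 4.23 and 4.36 FPKM) and WTAP had 1 peak of 1.84-fold at 21.1 and 20.8 FPKM, whereas METTL14 (4.93-fold, 6.06 and 6.16 FPKM) was intermediate. Both erasers had a 6.62-fold peak that missed the FDR limit, ALKBH5 at 15.7 and 16.2 FPKM and FTO at 1.52 and 1.63 FPKM. Of 13 readers, 3 were strong, against 1.97: PRRC2A (15.7-fold in exon 16 of 31, 72.6 and 73.4 FPKM), IGF2BP3 (14.7-fold, 6.55 and 7.06 FPKM) and YTHDF2 (6-fold, exactly at the limit, 21.8 and 22.2 FPKM). IGF2BP1, of the same family as IGF2BP3, was weak with 1 peak of 1.62-fold at 29.5 and 30.5 FPKM.

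Signaling lists were mostly somewhat above the share over all genes. Notch signaling had 9 strong of 26 (34.6%, against 5.40), with the receptor NOTCH2 (13.2-fold, 16.1 and 16.4 FPKM) and the nuclear effector RBPJ (15.6-fold, 15.0 and 16.3 FPKM), while MFNG, a glycosyltransferase that modifies the receptors, had 48.9 and 50.5 FPKM and no peak. FoxO factors and upstream kinases had 10 strong of 35 (28.6%, against 7.57), with FOXO4 (27.6-fold, 3.86 and 3.82 FPKM) and FOXO3 (10.5-fold, 5.47 and 6.29 FPKM). The BCL2 family had 5 strong of 15 (33.3%, against 2.91), among them BAX, a pore former of apoptosis (17.7-fold, 15.3 and 16.1 FPKM). Immediate early and labile regulators had 8 strong of 32 (25.0%, against 5.61), with JUN at 14.9-fold, and cytokine receptors 3 of 20 (15.0%, against 3.56). Of the ubiquitin ligases and deubiquitinases 16 of 68 were strong (23.5%, against 13.7) and 3 had no peak, against 10.5.

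At the other end, oxidative phosphorylation and cytosolic ribosomal proteins had few strong members and many without a peak, although 24 genes of each list were intermediate or strong. The nuclear genes of oxidative phosphorylation had 26 of 77 without a peak (33.8%), against 12.9 from the range shares, 27 weak, 23 intermediate and 1 strong, against 11.3. ATP5F1B, a catalytic subunit of ATP synthase, had 347 and 359 FPKM without a peak, and COX8A (187 and 186 FPKM), COX5A (108 and 103 FPKM) and CYC1 (98.6 ± 3.2 FPKM, SD, n = 2 inputs), of the cytochrome complexes, had none either. The strong member was NDUFB2, of complex I, with a peak of 11-fold in the 5′ UTR at 6.39 and 6.43 FPKM. The median span of these genes was 12600 bases, against 25950 over all genes.

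Cytosolic ribosomal proteins had 31 of 80 without a peak (38.8%), against 21.3 from the range shares, 25 weak, 20 intermediate and 4 strong, against 5.85. Their median FPKM was 113. RPS2, RPS18, RPS12 and RPL7A were among the most abundant without a peak, and RPL31 (9.49-fold, 72.7 and 73.8 FPKM), RPL37 (6.69-fold), RPS9 (6.27-fold) and RPL36AL (6.18-fold) were strong. Mitochondrial ribosomal proteins, at a median of 13.1 FPKM, had 16 of 79 without a peak (20.3%, against 11.2) and 5 strong (6.33%, against 14.3). Of 13 mitochondrially encoded genes, 3 had no peak, against 2.10 from the range shares, and 1 was strong, against 1.74. The strong one was MT-ND2, a complex I subunit (6.26-fold, 34.4 and 40.8 FPKM).

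Lysosome and V-ATPase genes had the largest share without a peak of the lists with 20 members or more, 17 of 42 (40.5%), against 6.77 from the range shares. PSAP (prosaposin, 141 and 143 FPKM), CD63 (a tetraspanin, 86.5 and 84.2 FPKM) and GRN (progranulin, 78.3 and 81.8 FPKM) were among them. There were also 5 strong members, such as TFE3, a transcription factor of lysosome genes (11.8-fold, 9.07 and 8.53 FPKM). In the larger deposited terms the share without a peak was smaller. It was 22 of 96 genes (22.9%, against 16.3) in the KEGG pathway Lysosome and 36 of 219 (16.4%, against 38.5) in the GO term lysosome. Over all annotated genes, 11.9% (KEGG) and 10.97% (GO) had no peak.

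Azurophil granule proteins, the products that define the promyelocyte, had no strong member among the 15 of the list, against 2.21 from the range shares. The larger terms of the deposited annotation did have strong genes. The GO term azurophil granule lumen had 11 strong of 61 (18.0%, against 9.64), and azurophil granule membrane had 8 of 35 (22.9%, against 6.23). MPO was weak (1.63-fold), as were LYZ, lysozyme (2.62-fold, 39.7 and 38.2 FPKM), and PRTN3, proteinase 3 (2.97-fold, 20.1 and 20.9 FPKM). CST7, a cystatin, had 139 and 147 FPKM and no peak, as had SRGN, CFD and BPI. The transcription factors SPI1 and CEBPE, which act on granule genes, were strong in the same cells. Late neutrophil genes had 1 strong of 7 (CXCR2, a chemokine receptor, 8.51-fold at 3.59 and 3.98 FPKM), and MMP9, a gelatinase, had 37.3 and 36.4 FPKM and no peak.

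Cytoskeletal and secretory housekeeping genes had 2 strong of 38 (5.26%, against 3.51), 19 weak and 7 without a peak. Proteasome subunits had 5 strong of 46 (10.9%, against 7.21) and 10 without a peak, against 7.33. Mitotic cell cycle genes had 5 strong of 52 (9.62%, against 7.91) and DNA replication genes 7 of 54 (13.0%, against 8.61). The proliferation marker MKI67 (9.48-fold, 70.3 and 73.0 FPKM) and the ribonucleotide reductase subunit RRM2 (7.01-fold, 50.9 and 51.9 FPKM) were strong, whereas the cyclin CCNA2 (54.5 and 53.8 FPKM) and the thymidylate synthase TYMS (156 and 161 FPKM) had no peak. The strong counts of these 4 lists were below both the share of all genes and the count from the range shares.

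In the other lists the strong counts were 12 of 59 for DNA repair (20.3%, against 11.7), 8 of 36 for SR proteins and hnRNPs (22.2%, against 4.40) and 8 of 34 for chaperonin and heat shock proteins (23.5%, against 4.83). SYNCRIP, an hnRNP-like RNA-binding protein, had 23.5-fold at 45.9 and 46.7 FPKM, and HSPA1B, a heat shock protein with the near-identical copy HSPA1A, had 27.6-fold at 12.8 and 13.6 FPKM. Translation factors had 6 strong of 48 (12.5%, against 5.98), tRNA synthetases 2 of 22 (9.09%, against 3.39), glycolysis 4 of 22 (18.2%, against 2.67), sterol synthesis 3 of 26 (11.5%, against 4.79) and the nuclear pore 5 of 29 (17.2%, against 5.05). MHC class I and peptide loading had 3 of 15 (20%, against 2.17), interferon response genes 3 of 24 (12.5%, against 5.15) and replication-dependent histones 2 of 11 (18.2%, against 2.59). The counts of translation factors and the nuclear pore were thus at those of the range shares. Of 19 long noncoding RNAs, 5 were strong (against 3.42), among them NEAT1 and MALAT1, a nuclear speckle RNA (9.49-fold, 24.8 and 25.7 FPKM). Another 5 had no peak (against 3.45), such as the small nucleolar RNA host genes SNHG1 and GAS5.

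**Figure D5:**
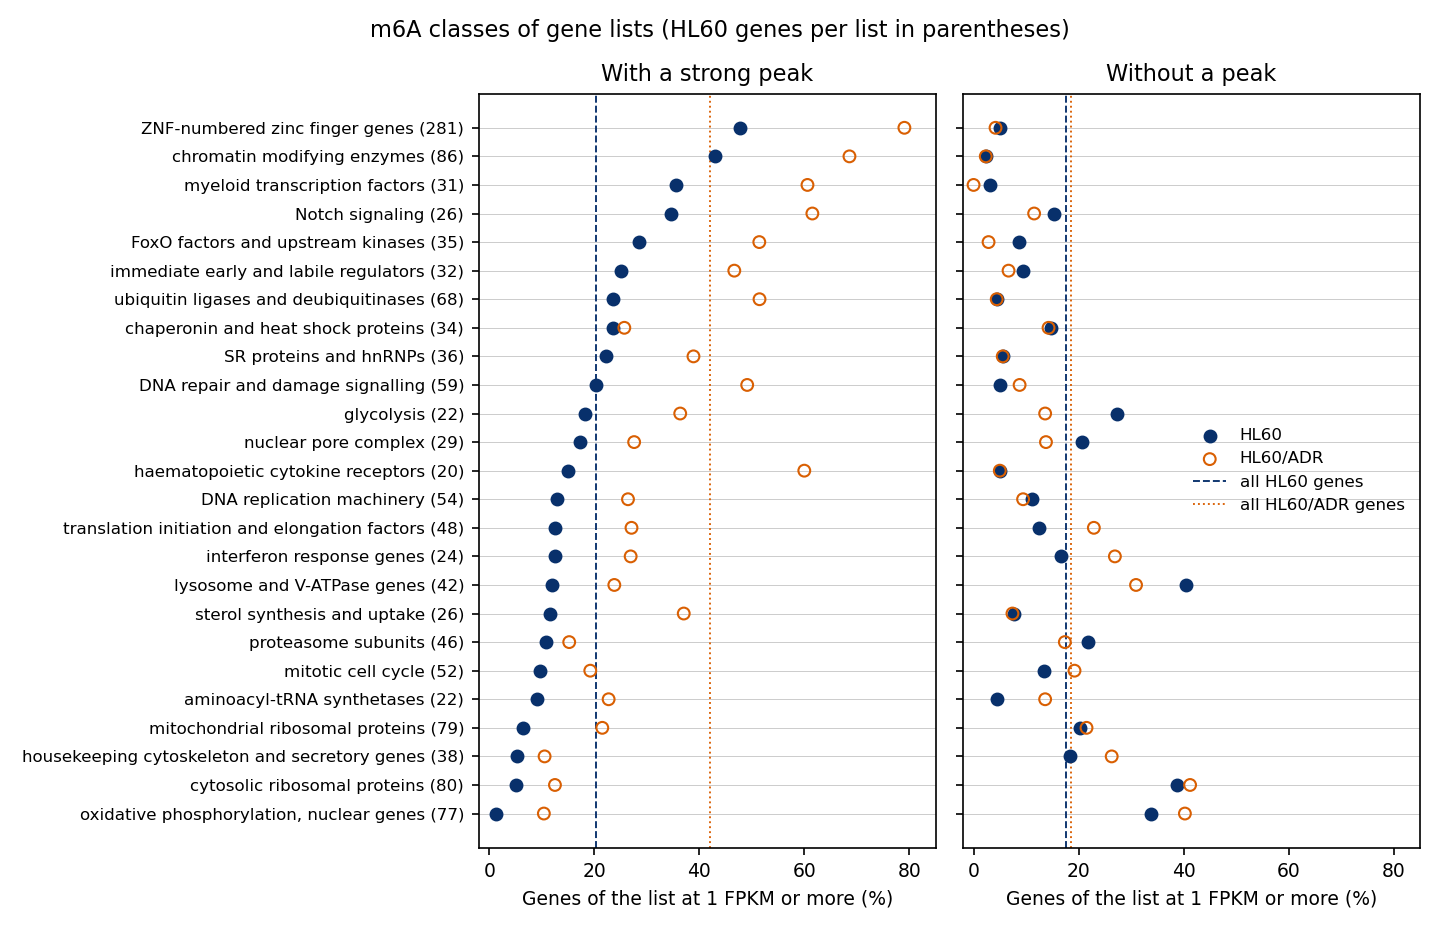
Share of each gene list of 20 genes or more (%) with a strong peak (left) and without a peak (right) in HL60 (filled) and HL60/ADR (open), with dashed and dotted lines for all genes of each line. Zinc finger genes (47.7%) and chromatin modifying enzymes (43.0%) head the HL60 strong share of the lists drawn, and oxidative phosphorylation (1.30%) ends it.

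The deposited pathway annotation gave a similar order for zinc finger, respiratory chain and ribosome genes, but less so for lysosome and azurophil granule genes. It held 233 KEGG pathways and 844 GO terms with 20 genes or more at 1 FPKM, in which 20.2% and 22.1% of annotated genes were strong and 11.9% and 10.97% had no peak. The largest strong share of a KEGG pathway was 40.7% of 273 genes in Herpes simplex virus 1 infection, a pathway that contains many ZNF genes, followed by a longevity regulating pathway (40.5% of 37), NF-kappa B signaling (37.1% of 70) and TGF-beta signaling (35.0% of 40). FoxO signaling had 25.0% of 88, Notch signaling 27.3% of 33 and acute myeloid leukemia 26.5% of 49. The smallest were Parkinson disease (1.75% of 114) and oxidative phosphorylation (2.63% of 114), which consist largely of respiratory chain genes, and ribosome had 4.62% of 130. Among GO terms, bicellular tight junction (50.0% of 30), adherens junction (44.7% of 38) and histone acetyltransferase complex (42.3% of 26) had high strong shares, and mitochondrial ATP synthesis coupled proton transport had 57.1% of 21 genes without a peak. Genes belong to several terms, and terms were ordered without a test.

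The HL60 classes were then looked up in the HL60/ADR libraries, which had no part in setting them. In HL60/ADR, 42.0% of 10972 genes at 1 FPKM or more were strong and 18.5% had no peak. Of 1989 genes strong in HL60 and at 1 FPKM or more in both lines, 1743 (87.6%) were strong in HL60/ADR and 28 (1.41%) had no peak there. Of 1598 genes without a peak in HL60, 1206 (75.5%) had none in HL60/ADR and 41 (2.57%) were strong. The weak and intermediate classes were less stable, with 804 of 1996 weak genes (40.3%) weak and 1630 of 4391 intermediate genes (37.1%) intermediate in HL60/ADR, where 2276 of the HL60 intermediate genes (51.8%) were strong. The lists were called and scaled separately, so fold enrichments were not compared.

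Of the lists with 20 members or more, those with the largest and smallest strong shares in HL60 were also at the ends within HL60/ADR. Some lists between them changed place. Cytokine receptors had 15.0% strong in HL60 and 60.0% in HL60/ADR, and chaperonin and heat shock proteins had 23.5% and 25.7%. Over all genes the shares were 20.4% and 42.0%. The zinc finger genes had 47.7% strong in HL60 and 79.1% in HL60/ADR, and chromatin modifying enzymes had 43.0% in HL60 and 68.6% in HL60/ADR. Cytosolic ribosomal proteins had 5.00% in HL60 and 12.5% in HL60/ADR, and oxidative phosphorylation 1.30% in HL60 and 10.4% in HL60/ADR. Without a peak were 33.8% of the oxidative phosphorylation genes in HL60 and 40.3% in HL60/ADR, and 40.5% of lysosome genes in HL60 and 31.0% in HL60/ADR. CEBPA, weak in HL60, and MYC, intermediate in HL60, were strong in HL60/ADR, while MYB and MPO were weak in both lines.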

How the data were processed

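Poly(A) RNA of HL60 and HL60/ADR cells was fragmented and immunoprecipitated with an anti-m6A antibody, with 2 IP and 2 input libraries a line. Reads had been cleaned by the authors using fastp and mapped onto GRCh38 by HISAT2. Peaks came from exomePeak, with p-values below 0.05 kept, and ChIPseeker gave their annotation. Tool versions were not given in the sources used here. The deposited peak lists pool the replicates and give per peak a ratio (fold enrichment of IP over input), a p-value and, as scores at or below 0, the log10 of the p-value and of the FDR. The study's methods define a peak at a fold change over 2, but all deposited rows were kept, including 7236 HL60 peaks under 2-fold (lowest 1.05) and 8062 with an FDR over 0.05. The deposited FPKM values, made by the authors with StringTie, are per library. The files hold no counts, and the read totals the study gives for each library were not used here. Columns with comparisons between the lines were not used.

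Genes were classed from their peaks at a mean of 1 FPKM or more in Python 3.11.15 with pandas 2.3.3. Shares were set beside those of all genes and of expression ranges at 5, 20 and 100 FPKM, without tests. Wilson intervals were from scipy 1.17.1. The classing was run on simulated peaks drawn within the limits of each class, which checks only that the limits were applied as stated. Members and gene lists were chosen with earlier results of these data known. The genes described were the 12 of largest fold enrichment at 10 FPKM or more, the 12 of highest FPKM without a peak and with a strong peak, the 8 weak ones of highest FPKM, the 8 with most peaks, and list members. Starts came from RefSeq promoters (GRCh38.p14). No genome was used, so sequences within peaks were not analysed here. Some of the genes and sequences chosen by these rules are not reported here.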

Additional observations from a re-analysis of the deposited data

How the results depend on the processing

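No paired analysis was possible because the peak list is pooled over replicates and no result comes from a test. Of 100 alternative values for 12 results, 68 stayed within 1.5 times a count, or within the 95% interval or the SD between inputs of a share or ratio. Without HL60 input replicate 1 or 2, the strong genes numbered 2277 to 2279, those without a peak 1965 to 1978 and the weak to strong ratio of median FPKM was 2.14 to 2.15, and 2255 to 2260 of the 2279 strong genes were strong in both. Only the FPKM values changed in these settings, and the pooled peaks stayed the same. The counts could therefore move only by genes that cross the FPKM minimum, and they do not measure how the classes vary between replicates.

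At a minimum of 5 FPKM, 1161 genes were strong and 917 had no peak, the ratio was 1.62, and 85.5% of strong HL60 genes were strong in HL60/ADR. At 0.5 FPKM the ratio was 2.30 and 22.4% of genes under 5 FPKM were strong. With 4-fold as the limit, 4739 genes were strong, the ratio was 1.90, and 82.2% of zinc finger genes, 67.4% of chromatin enzymes and 42.4% of all genes were strong, with 92.5% strong in HL60/ADR and 24.9% of strong peaks in the 5′ UTR. With 10-fold, 636 genes were strong, the ratio was 1.72, the shares were 7.12%, 11.6% and 5.70%, with 69.3% strong in HL60/ADR and 31.4% of strong peaks in the 5′ UTR. Without an FDR limit, the ratio was 2.19, the shares were 55.2%, 54.7% and 30.4%, with 84.0% and 23.0%. At an FDR of 1e-10, the ratio was 2.11, with 89.4% and 28.5%. With genes at 1 FPKM or more only, 30.5% of strong peaks were in the 5′ UTR. With peaks of 2-fold or more only, the ratio was 1.87, 55.0% of ribosomal protein and 51.9% of oxidative phosphorylation genes had no peak, against 24.6% of all genes, and 72.9% of HL60 genes without a peak had none in HL60/ADR. Fewer genes or peaks pass a stricter limit by construction, and the cause of the other shifts was not tested.

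Leaving out peaks on whole steps, chosen after seeing the data, gave 1905 strong genes, with 44.1% of zinc finger genes and 38.4% of chromatin enzymes strong. No read counts per gene were given, so a gene without a peak may be one whose peak could not be detected, and the classes carry no replicate error because each list pools its IP libraries.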
